A study of Mus with 5 samples.

Results

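The BATF ChIP-seq list from RA-treated CTLs held 368 peaks without a counterpart in the untreated cells. They were chosen by position, as peaks of the BATF RA list on chromosomes 1 to 19, X and Y for which no BATF control peak lay within 5 kb. They made up 3.72% of the 9894 BATF peaks called on these chromosomes with RA, and the other 9526 had a control peak within 5 kb. The members were therefore selected on the measured calls of both lists, and their height, width and fold enrichment below are descriptions of what was selected. In ChIP-seq an antibody recovers the DNA fragments that a protein is bound to, and a peak is a place where fragments pile up above the level of an IgG control.

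The cells were CD8 T cells of WT mouse spleen, stimulated through CD3 and CD28 for 24 h in the presence of IL-2 and then rested in IL-2 (100 U/ml) for another 24 h, and the last hour of culture (1 h) was without RA (control) or with RA at 50 nM. Anti-BATF and anti-RARα each gave 1 peak list per condition, called by the authors on 2 pooled alignment files against a single file from normal rabbit IgG, whose RA state the labels do not give. Nothing in the sources says whether the pooled files are replicate samples or repeat runs, so no replicate spread can be given, no test between conditions was run, and the intervals below (Wilson, 95%) express counting error and nothing else. The labels name a different interleukin for nearly every sample, whereas the protocol names IL-2, and the age of the mice used for these libraries is not given.

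BATF is a basic leucine zipper protein of the AP-1 family that binds DNA as a pair with JUN proteins, and in activated T cells it often binds beside IRF4 at composite elements. It takes part in opening chromatin at effector genes. RARα is a nuclear receptor that sits on DNA together with RXR, recruits corepressors without ligand and exchanges them for coactivators, histone acetyltransferases among them, when RA binds.

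The BATF RA pool held 16424269 fragments against 23110180 for the BATF control, so the list in which the members were found was the shallower one. The control list was also the longer, with 15812 peaks against 9899. Binding lists carry no RNA level, so the labelled cell type was set against BATF peaks at lineage genes: Cd8a and Cd8b1, the chains of the CD8 coreceptor, had 16 and 20 control peaks and 5 and 7 RA peaks. The B cell genes Cd79a and Ms4a1 had 0 to 2 peaks in either list, and the myeloid genes Lyz2 and Csf1r had 0. No member was assigned to any of these genes.

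The members were weak peaks for the most part. Their pileup, the number of fragments over the summit, had a median of 16 and ran from 10 to 49, against a median of 22 in the peaks with a control counterpart. Fold enrichment over the local IgG level had a median of 4.60 (quartiles 3.97 and 5.41) and reached 16.2, against a median of 5.29. A fold of 5 or more was reached by 129 members and a fold of 8 or more by 15. The IgG level under the members was also lower, with a median of 2.50 against 3.09 fragments, and it stood at the genome background in 113 of the 368 (30.7%, interval 26.2 to 35.6) against 14.3% of the other peaks.

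The members lay away from promoters more often than the peaks shared with the control. The annotation placed 126 members at promoters (34.2%, interval 29.6 to 39.2), against 65.8% of the other peaks. Introns held 110 (29.9%, against 16.5%), intergenic sequence 119 (32.3%, against 15.6%) and exons 13 (3.53%, against 2.14%). The intervals of the first 3 classes did not overlap those of the shared peaks. Of the 126 promoter members, 69 carried a transcription start site as their detailed annotation, 18 a CpG island and 9 a 5′ untranslated region, and the rest other features.

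**Figure D1:**
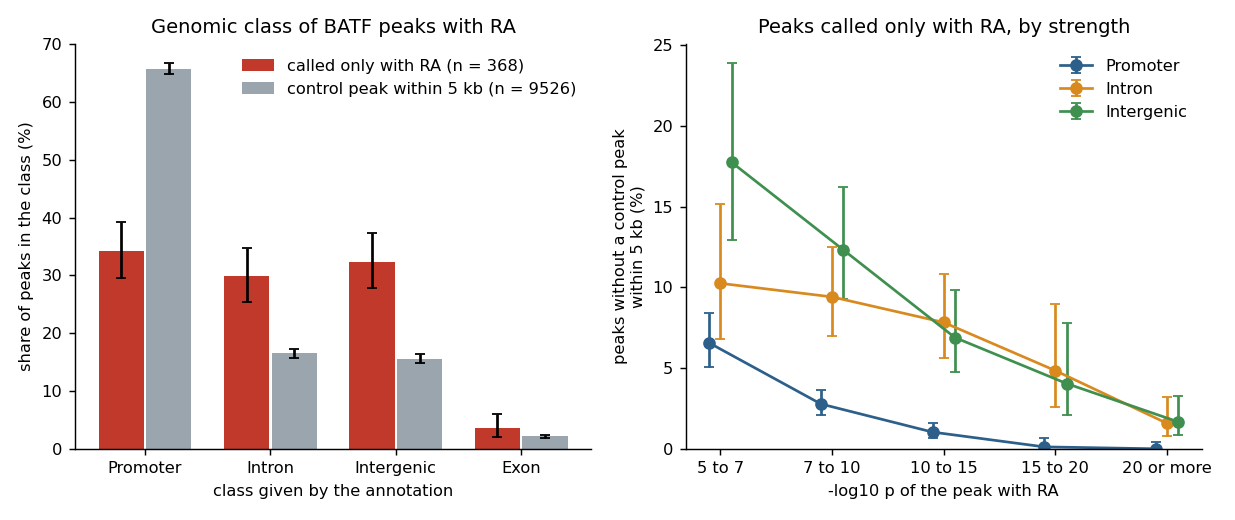
Left, share (%) of BATF RA peaks in each annotated class, for the 368 peaks called only with RA (red) and the 9526 with a control peak within 5 kb (grey). Right, share (%) of BATF RA peaks without a control peak within 5 kb, by class and by the -log10 p of the peak. Bars and points are shares of peaks and error bars are Wilson 95% intervals; the promoter line lies below the intron and intergenic lines in all 5 ranges of strength.

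Read the other way, 1.97% of all promoter peaks with RA lacked a control peak (126 of 6391), against 6.54% of intron peaks (110 of 1681) and 7.41% of intergenic peaks (119 of 1605). This share fell with the strength of the peak. Where the -log10 p was 5 to 7 the share without a counterpart was 9.03%, and where it was 20 or more it was 0.773%, which is 15 of 1941. Promoters had the lowest share of the 3 classes at each strength. In the weakest range promoters stood at 6.56%, introns at 10.2% and intergenic peaks at 17.7%. There the promoter interval (5.07 to 8.44) overlapped that of introns (6.80 to 15.2). In the range of 10 to 15 they stood at 1.03%, 7.82% and 6.89%. At 20 or more no promoter peak of 971 was a member, where 3 counts would be a share of 0.309% and the Wilson upper limit is 0.394%, whereas 7 of 445 intron peaks and 8 of 480 intergenic peaks were.

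Members were narrow for their height. The median width was 288.5 bp against 473 bp in the shared peaks, close to the minimum width of 231 bp that the call allowed. Shared peaks were widest at promoters, so medians were also taken within a class. They were 303 bp for members against 522 bp at promoters, 280 against 393 bp in introns and 279 against 401.5 bp in intergenic sequence. A width of at most 350 bp was seen in 281 members (76.4%, interval 71.8 to 80.4) and in 28.6% of the shared peaks. The same was seen at similar height: among peaks with a pileup of 25 to 49, 33 of 34 members (97.1%) were at most 350 bp wide, against 562 of 3211 shared peaks (17.5%), and the median widths were 254 and 568 bp. Of these 34 tall members, 15 were intronic, 17 intergenic and 2 at promoters, and the shared peaks of this height were not split by class. The same reading was taken in the control list over the heights that correspond to it in share of fragments. There 102 of 677 control peaks without an RA counterpart (15.1%) were at most 350 bp wide, against 157 of 4389 with one (3.58%), and the median widths were 567 and 964 bp. Peaks without a counterpart were thus the narrower ones in both lists, but control-only peaks of this height rarely came near the minimum width. Shared peaks were also wider in the deeper control list, with a median of 964 bp against 568 bp with RA. The 350 bp limit is therefore not alike in both lists, and the 15.1% and 97.1% cannot be compared directly.

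**Figure D2:**
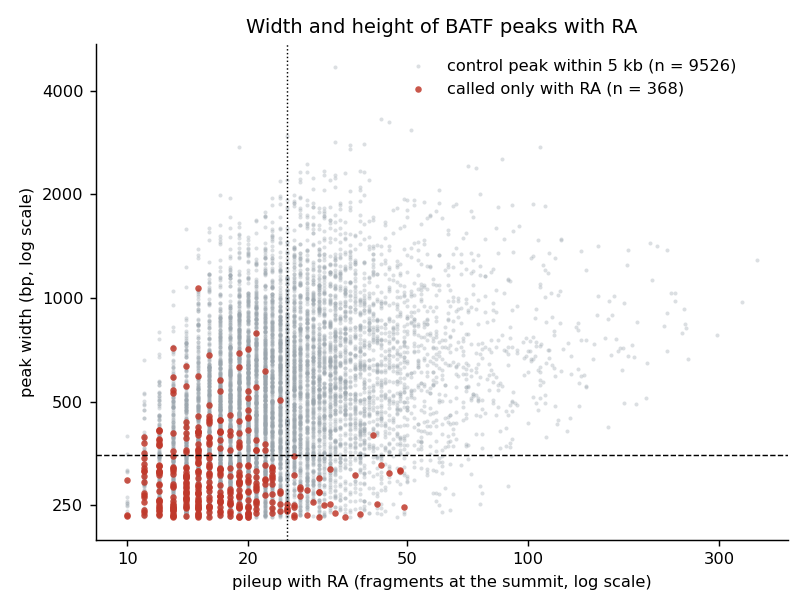
Width (bp, log scale) against pileup (fragments at the summit, log scale) of each BATF peak with RA; red points are the 368 members and grey points the 9526 peaks with a control peak within 5 kb. The dashed line marks 350 bp and the dotted line a pileup of 25; at or right of it 33 of 34 members lie below the dashed line.

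Absence from the control list does not give the control level. What the control call could have missed was therefore computed at each member from the IgG level, since a place is left uncalled only while its pileup stays under what the p cutoff of 1e-05 needs. The deposited −log10 p was recovered in this way to within 0.01 for each of the 9893 RA peaks and 15787 control peaks to which it was applied. A control pileup of 13 to 30 fragments (median 15) would have been needed at the members. Every member had passed the same cutoff in the shallower pool, so an equal share of the control fragments would pass it by construction, and the calculation gives only a bound on the control level. The pileup with RA was 1.16 to 5.63 times the highest control level that would stay uncalled, in fragments per 1000000, with a median of 1.55. For 156 members this lower bound was below 1.5 times, and for 71 it was at least 2 times. With 0.5 of the RA share, 55 would have passed. The calculation considers height alone, and a stretch of control signal shorter than the control call's minimum width of 239 bp would also stay uncalled.

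**Figure D3:**
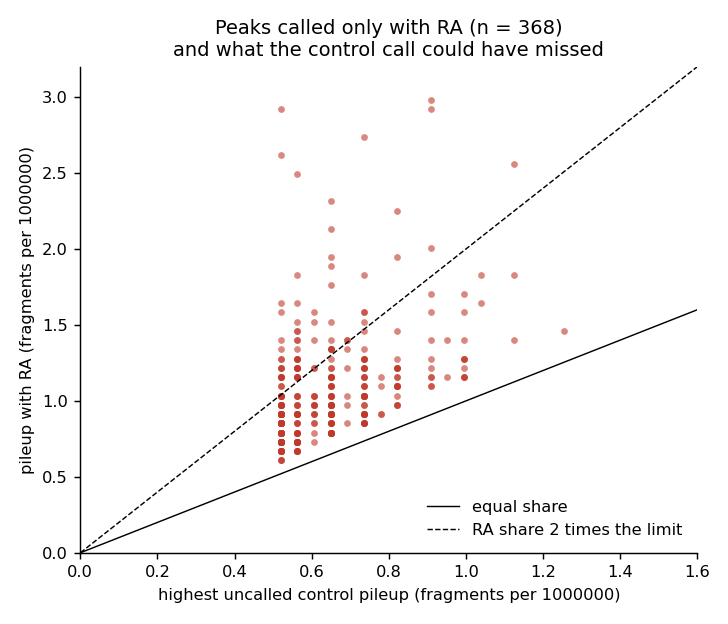
Pileup with RA at each of the 368 members (fragments per 1000000) against the highest control pileup that the call would have left uncalled at the same place (fragments per 1000000). The solid line marks equal shares and the dashed line an RA share 2 times that limit; the points lie above the solid line by construction, since the control was the deeper pool, and 71 lie on or above the dashed one.

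The distance from a member to the nearest BATF control peak had a median of 29131 bp (quartiles 13660 and 71834). It was at most 10 kb for 64 members, at most 20 kb for 137 and over 100 kb for 71. The members just inside the limit lay 5008 bp from a control peak (Cpne3), 5023 bp (Sema4b) and 5023 bp (a peak whose assigned genes include Itgal). Just outside it were peaks at Ppp2r5b (4998 bp), Slc35g1 (4964 bp) and Nabp1 (4915 bp), with folds of 5.25, 3.96 and 4.86. The authors' assigned gene had a BATF control peak elsewhere for 225 members (61.1%, interval 56.1 to 66.0), and for 210 of them such a peak lay within 100 kb. Among the shared peaks it was 98.5%, a share that their control peak within 5 kb largely fixes, so the values cannot be compared as a property of the members. For 126 members with a named gene, none of the assigned genes had a control peak, and 17 members carried no gene name.

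RARα binding was not used to choose the members. In the control, 23 members had a RARα peak within 5 kb (6.25%, interval 4.20 to 9.20), against 8.13% of all BATF RA peaks. With RA a RARα peak lay near 7 members (1.90%, interval 0.924 to 3.87), against 1.19%. Both pooled shares were thus near those of all BATF RA peaks. Within a class the RARα control share was lower for members than for shared peaks, with overlapping intervals. At promoters it was 1.59% against 4.996%, in introns 11 of 110 against 13.4%, and in intergenic sequence 8.40% against 15.8%. With RA the order was mixed, at 0 of 126 against 0.750%, 1.82% against 1.91% and 4.20% against 2.09%, and the intervals again overlapped. Each of the 7 members with a RARα peak with RA also had the RARα control peak. A further 16 members had it in the control alone, and none had a RARα peak with RA alone. Of the 23, 11 were intronic, 10 intergenic and 2 at promoters.

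Where RARα was near, its peak overlapped the member in most cases. The RARα control peak overlapped the member at 21 of 23 places (91.3%), against 60.6% of the shared BATF peaks with a RARα control peak within 5 kb. The median distance between the BATF and RARα summits was 45 bp at the members and 270 bp at the shared peaks, and 15 of the 23 were within 100 bp. With RA all 7 overlapped, against 55.9%, with median summit distances of 83 and 349 bp. Having no BATF control peak within 5 kb is part of how the members were chosen, and whether that choice bears on these distances was not tested.

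The highest member of all was one of these places. It lay at chr9:123740851-123741167 on mm10, in intergenic sequence 26212 bp from Ccr9, the gut-homing receptor for CCL25, and 65478 bp from Cxcr6, a receptor of tissue-resident T cells. Also assigned were Fyco1, Slc6a20a and Lztfl1, and Lztfl1 was the nearest protein-coding gene, 23374 bp away. BATF with RA gave 48 fragments and a fold of 16.2, while no BATF control peak was called. The bound was the largest among the members, 2.92 fragments per 1000000 against at most 0.519 in the control. RARα was called here in both conditions, with 47 fragments and a fold of 12.4 in the control and 24 fragments and a fold of 6.32 with RA, and its summits lay 21 and 14 bp from that of BATF. A neighbouring BATF site 6938 bp away had 48 fragments with RA and was called in both conditions, with folds of 8.73 in the control and 10.7 with RA.

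**Figure D4:**
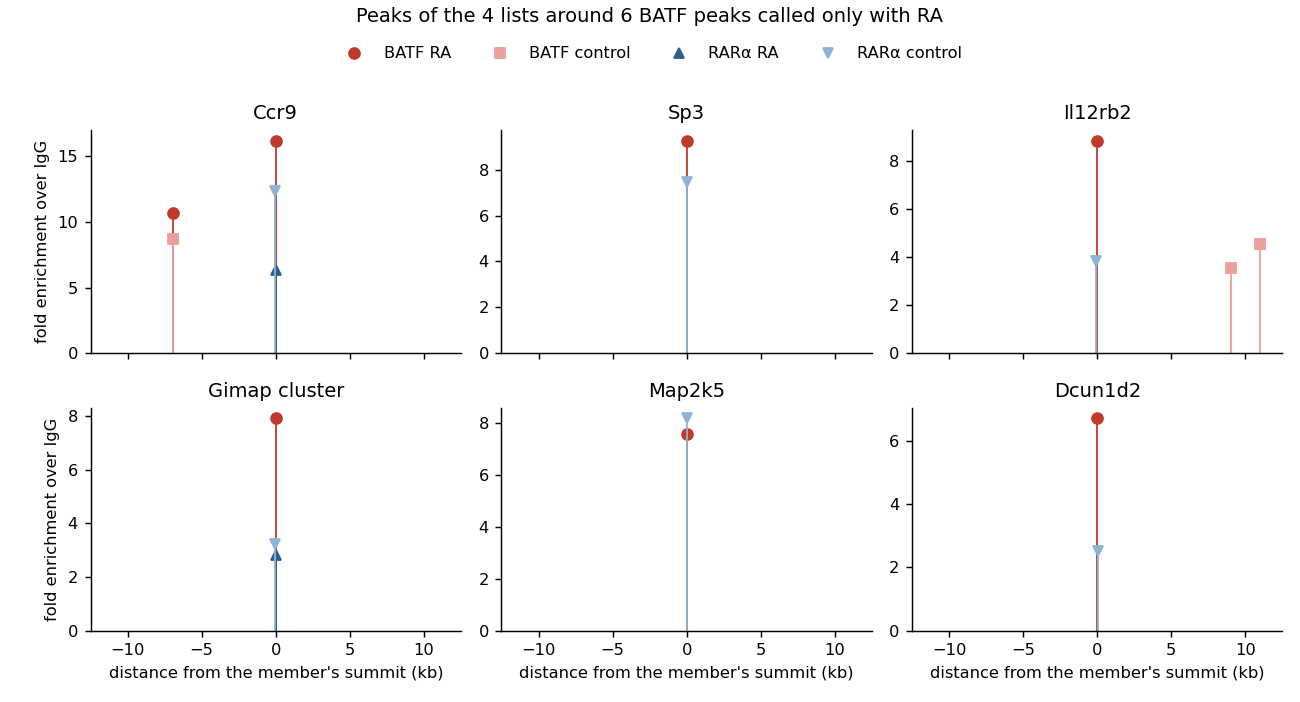
Fold enrichment over IgG of each peak of the 4 lists within 12 kb of 6 members, against the distance (kb) of its summit from the member's summit; the 6 are the members of highest fold with a RARα control peak within 5 kb, named by an assigned gene. In every panel a RARα control peak (light blue) stands at the BATF RA summit (red) and no BATF control peak (pink square) does.

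The next members of this kind showed the same placement. A member assigned to Sp3 and 98087 bp from it, a gene for a zinc finger factor that binds GC-rich promoters, lay at chr2:72838161-72838439 and had 27 fragments (fold 9.26), with the RARα control summit 2 bp away at a fold of 7.47. In intron 1 of 15 of Il12rb2, a chain of the IL-12 receptor, the member at chr6:67367143-67367425 had 27 fragments and a fold of 8.86. RARα there had 14 fragments in the control and no peak with RA, and the summits of BATF control peaks lay 9027 and 11003 bp away. In intron 13 of 20 of Map2k5, a kinase of the ERK5 cascade, the fold was 7.58 and the RARα control summit was 8 bp away with a fold of 8.17. A member in an intron of Dcun1d2, which acts in cullin neddylation, had a fold of 6.70 and a RARα control fold of 2.52.

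The other members that kept RARα with RA differed in which signal was the higher. At the Gimap cluster, which encodes GTPases of lymphocytes, the member at chr6:48802022-48802262 had 24 fragments and a fold of 7.91, against RARα folds of 3.22 in the control and 2.83 with RA. Near Gm1965 the order was turned, with a BATF fold of 6.61 against RARα folds of 16.5 in the control and 9.86 with RA. In Lamc1, a laminin chain, BATF had a fold of 4.29 and RARα had 7.04 and 6.41. In Sorcs2, a sorting receptor, BATF had 4.96 and RARα had 4.02 in the control and 5.91 with RA. Of the 7, Sorcs2 was the place where the RARα fold was higher with RA. The others were a member assigned to Clic5 with a BATF fold of 4.50 (RARα 8.05 and 4.25) and one assigned to several genes including Itgal with 4.63 (RARα 3.61 and 3.54).

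Most of the strongest members had no RARα peak nearby. Pard3, a cell polarity scaffold, held the second highest in intron 10 of 13 (chr8:127381336-127381662), where a pileup of 43 fragments gave a fold of 14.5, and the nearest BATF control peak was 409954 bp away. It was followed by an intergenic peak assigned to Gm20139 (chr10:19216223-19216623) with 41 fragments and a fold of 13.3. An intergenic peak with 38 fragments and a fold of 10.1 followed, 9104 bp from Chrna9, an acetylcholine receptor subunit, and also assigned to Rhoh, Rbm47 and 9130230L23Rik. The next was 17203 bp from Btg1, an antiproliferative factor, with 45 fragments and a fold of 10.003. All 10 members of highest fold were intronic or intergenic, and none was wider than 401 bp. The others among them were assigned to Wdr26 and Cnih4 (9.30), in a stretch of chromosome 12 with no assigned gene (chr12:115388549-115388779, 9.28) and in intron 3 of 4 of Ndufaf2 (8.92).

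Promoter members were lower. The highest was assigned to 5830418P13Rik with a fold of 7.27, followed by Brms1l, a subunit of SIN3 histone deacetylase complexes, at 6.65 and Ccdc13 at 6.33. The detailed annotation of the highest was a 3′ untranslated region, and its summit lay within the protein-coding gene Bfsp2. A member annotated to the transcription start site of Dicer1, the microRNA-processing ribonuclease, had its summit 524 bp outside the gene. Its 16 fragments gave a fold of 5.62, and the nearest BATF control peak was 238176 bp away. No promoter member reached a fold of 8, and 28 of 126 reached 5, against 48 of 110 intronic and 50 of 119 intergenic members.

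The 9 lists of T cell genes examined held 336 genes with 763 BATF RA peaks, of which 21 were members (2.75%, interval 1.81 to 4.17), a share near the 3.72% of all BATF RA peaks. By list it ran from 0 to 6.35%, and each list held few members. The AP-1, BATF and IRF factors, the partners and relatives of BATF, had 0 members among 46 peaks, where 3 counts would be a share of 6.52% and the Wilson upper limit is 7.71%. The T cell receptor signalling genes and their brakes had 0 of 143, where 3 counts would be 2.10% and the Wilson upper limit is 2.62%. Both lists were bound in the control, with peaks at 22 of 27 and 46 of 48 genes.

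Effector and memory transcription factors had 2 members among 161 peaks. One lay 32747 bp from Nr4a3, an orphan nuclear receptor induced by T cell receptor signals, with 17 fragments and a fold of 4.91. The other lay 15921 bp from Nfil3, a leucine zipper repressor, with 14 fragments and a fold of 3.87. Both genes had other BATF peaks in the control, 4 and 5.

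Effector cytokines, chemokines and cytotoxic genes had 2 members among 38 peaks. The first was an intergenic peak assigned to both Il3 and Csf2, which encode IL-3 and GM-CSF, with 13 fragments and a fold of 4.63. It lay 27056 bp from Il3, which had no other BATF peak in either list, and 44436 bp from Csf2, which had 1 in the control. The second was a promoter peak at Ccl4, an inflammatory chemokine, with 12 fragments and a fold of 4.30.

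Cytokine receptors and their signalling genes had 6 members among 116 peaks. Besides Il12rb2, the highest was 29107 bp from Socs1, a brake on JAK signalling, with 20 fragments and a fold of 6.94. The protein-coding gene nearest to that member was Clec16a, 9823 bp away and also assigned. Jak1, the kinase shared by many of these receptors, had a member 55385 bp away with a fold of 4.96. Il7r, the survival receptor of naive and memory cells, had one 50847 bp away with a fold of 4.63. Ifngr1, a chain of the interferon gamma receptor, and Socs3, a brake on STAT3 signalling, had members with folds of 3.91 and 3.75. All 6 genes had BATF peaks in the control, from 3 at Il12rb2 to 14 at Jak1.

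Trafficking receptors and integrins had 3 members among 67 peaks. They were the Ccr9 and Cxcr6 peak above, an intronic peak in Cd44, the hyaluronan receptor, with a fold of 4.38, and the peak 35100 bp from Itgal, the alpha chain of LFA-1. Inhibitory and costimulatory receptors had 1 of 41. It lay within Havcr2, which encodes TIM-3, at chr11:46474300-46474544 with 20 fragments and a fold of 6.30. No BATF control peak was assigned to Havcr2. The nearest one lay 25640 bp from the member, at chr11:46448285-46448660, while the gene spans chr11:46454931-46481255. The member was also assigned to Mir6989, which had a BATF control peak.

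Retinoid receptors, retinoid metabolism genes and coregulators had 4 members among 63 peaks. Rdh10, which oxidises retinol in the first step of RA synthesis, had one 95573 bp away with a fold of 4.13. The coactivator Ncoa2 had an intronic one with a fold of 4.13, and the corepressor Hdac4 one in exon 11 of 27 with a fold of 4.63. The other was the Gimap cluster peak, counted here because Gimap7, 77505 bp away, stands on this list. In the cell cycle and survival list all 3 members, of 97 peaks, lay in 1 gene, Dnmt3a, a de novo DNA methyltransferase. They had 12, 15 and 18 fragments and folds of 4.11, 4.57 and 4.22, and that in an intron at chr12:3855852-3856155 overlapped a RARα control peak with a fold of 4.21. Dnmt3a had 4 BATF peaks in the control and 7 with RA.

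Repeats were annotated under more of the members. A repeat was named for 61 (16.6%, interval 13.1 to 20.7), against 6.51% of the shared peaks, and an LTR element for 26 (7.07%, interval 4.87 to 10.2), against 1.83%. Repeats were rare under promoters (1.76% of the shared promoter peaks), so the share was also taken within a class. In intergenic sequence LTR elements were named for 18 of 119 members (15.1%, interval 9.79 to 22.6) and for 6.86% of the shared peaks. In introns they were named for 8 of 110 members (7.27%, interval 3.73 to 13.7) and for 3.56% of the shared peaks (2.76 to 4.60), so the intervals overlapped, as did those for any repeat in introns (21.8% and 15.7%). LINE elements in intergenic sequence were named for 1.68% of the members and 3.16% of the shared peaks. Outside promoters and exons the most frequent families were ERVL-MaLR, with 13 members of 229 (5.68%, against 2.58%), and ERVK with 8 (3.49%, against 1.01%). Reads from near-identical repeat copies are hard to place, and their part in these calls was not tested.

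Members were scattered over the genome. Their share of the BATF RA peaks of a chromosome ran from 2.24% on chromosome 19 to 7.89% on X, where 9 of 114 gave an interval of 4.21 to 14.3. A single pair of members lay within 10 kb of each other, at Cd72, a B cell coreceptor, 233 bp apart and with folds of 3.60 and 2.93.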

How the data were processed

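BATF and RARα ChIP-seq peak lists of mouse CD8 T cells were analysed. The authors aligned paired-end reads with Bowtie2 and called peaks with MACS 2.2.7.1 on mm10, pooling 2 files per condition against 1 IgG file, at a p cutoff of 1e-05 (BATF) or 1e-03 (RARα), and annotated each peak with a class and genes. The pileup column deposited by the authors is a coverage signal that counts fragments over the summit, with a step of 0.988 in the BATF control list. Their deposited fold is the ratio of pileup plus 1 to IgG level plus 1, so the IgG level could be recovered. The deposited p-value and q-value are on the −log10 scale. Depth was 16424269 fragments for BATF with RA, 23110180 for BATF control, 22655611 for RARα control and 22475060 for RARα with RA.

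Peaks were compared by the gap between their ends, with a limit of 5 kb as in the study's methods. Samples were grouped by the labels, and with 1 list per condition no test was made. Shares carry Wilson 95% intervals. The control level that would stay uncalled was computed from the Poisson p-value and the IgG level scaled by depth. At 3938 summits present in both BATF lists within 50 bp of each other, the rescaled IgG level was 1.00 times the control's (median). Gene positions came from RefSeq for GRCm38.p6, the assembly of mm10, which matched 630 of 634 gene names. The members, gene lists and named genes were chosen with earlier results of these data known. Named were the 10 members of highest fold, up to 15 near RARα by fold, those at listed genes, those beside the 5 kb limit and pairs within 10 kb. The promoter members of highest fold, Dicer1, and Lamc1 and Clic5 among those with RARα, were named after their values were seen. Overlap and interval steps were tested on simulated data. Alternatives were other distances, stricter peaks, merged peaks and subsets of members. Sequence motifs were not analysed here. Software was Python 3.11.15, pandas 2.3.3 and numpy 2.4.6, with scipy 1.17.1 for p-values and matplotlib 3.10.9 for plots.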

Additional observations from a re-analysis of the deposited data

How the results depend on the processing

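Of 49 alternatives over 6 results, 35 stayed within 1.5 times the count or within the interval of the share or median. The other 14 moved further, and a change of direction was not scored. Among the 35 that stayed, 6 were subsets for the share passing the control cutoff at equal depth-scaled pileup, which is 100% by construction. The number of members was 630 when only overlapping control peaks counted and 231 at 20 kb, and it was 113 when RA peaks had to reach a −log10 p of 10 and 129 when they had to reach a fold of 5. The promoter share was 28.0% at a −log10 p of at least 7 and 21.7% at a fold of at least 5. The share near RARα was 6.25% with the RARα control list. Members passing the control cutoff were 14.9% at 0.5 of the depth-scaled pileup and 83.2% at a p of 1e-07. The share with a control peak at the assigned gene was 75.9% for members by overlap and 49.8% at 20 kb. The median fold was 5.05 at a −log10 p of at least 7, 5.95 at a fold of at least 5, and 5.93 without the 1 added to both levels. The causes were not tested.

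The numbering of the control list skipped 416 numbers, and 15 members lay beside such a gap and 2 at a chromosome end. Among the 351 others, an alternative chosen after seeing the data, the promoter share was 34.2% and the RARα share 1.99%. Leaving out the 33 narrow members with a pileup of 25 or more, also chosen after seeing the data, left 335 with a promoter share of 37.0%. Motif shares and a promoter limit of 1 kb from a gene start were not run, since no genome sequence or strand was used here. No paired analysis was possible because each condition had 1 pooled list. Pooling leaves no replicate error, and the depth of the RA pool limits which weak peaks could be called.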
